A study of Arabidopsis thaliana with 16 samples.

Results

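In Arabidopsis thaliana cell suspension cultures, 52 genes out of the 28598 listed had levels in every dark library at least 3 times the highest light level and at or above a floor of 0.5. Levels are given as CPM, that is, a gene's read count divided by all counts of its library and multiplied by 1000000. The genes were chosen by the lowest dark and the highest light CPM in the same 8 libraries that are described here, so their difference between light and dark is given as a description, with no test. In all, 58 genes met the rule, of which 6 were left out by name, while the mirrored rule, with light above dark, was met by 267 genes. The 52 genes include thalianol synthase THAS1 and the cytochrome P450 gene CYP705A5 of a triterpene gene cluster, the lateral root factors LBD29 and LBD33, the root cap factor SMB, the root nitrate factor AGL44, 3 genes of the C1 domain family and the dark-inducible glucosidase DIN2.

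The cultures were Col-0 cells prepared from leaves. Both groups grew at 23 °C in shaken flasks of the same medium with 3% sucrose, 3 mM MES and 1.1 mg/L of 2,4-D, a synthetic auxin. The light group had constant light, and the flasks of the dark group were wrapped in foil for 2 weeks with a passage to fresh medium every 7 days. Each group had 4 RNA-seq libraries, named Light-RNA1 to Light-RNA4 and Dark-RNA1 to Dark-RNA4, all labelled as taken at 16 h. The protocol also mentions light cells taken at 5 days without saying for which assay, and the label ties the time to stratification while the protocol ties it to subculture. The 4 libraries of a group are given as coming from replicate cultures, although the culture protocol speaks of duplicates. The cells are 1 dedifferentiated line, held in auxin and fed sugar, rather than a plant tissue. The study also made chromatin libraries, which were not analysed here.

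Plants in darkness stop photosynthesis, draw on stored carbon and grow by a different programme from plants in light. Triterpenes are specialised compounds made from oxidosqualene, and in Arabidopsis the thalianol genes lie side by side on chromosome 5 and are mainly active in roots. LBD proteins are plant transcription factors, several of which are switched on by auxin and start lateral roots. C1 domain proteins carry cysteine and histidine residues in a zinc-binding fold, and the function of most of the plant members is unknown.

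The libraries held 18363149 to 37813411 counts, so that 3 counts in 1 library equal 0.0793 to 0.163 CPM. Dark-RNA2 and Light-RNA4 stood between the groups on the first principal component of all 19129 genes kept (55.9% of the variance), at 17 and -20.5, where the other dark libraries lay at 79.6 to 84.5 and the other light libraries at -99.2 to -66.6. In the test of dark against light over all genes kept (edgeR, quasi-likelihood F test, p adjusted by Benjamini-Hochberg, threshold 0.05), 705 genes (3.69%) were higher and 1207 (6.31%) were lower in dark. Without Dark-RNA2 and Light-RNA4, 2419 genes (12.6%) were higher, an alternative chosen after the data were seen. Of 15 marker genes of seeds 6 were at 0 in every library, and their summed levels were 1.61 to 4.14 CPM in light and 0.301 to 2.14 CPM in dark. Only the seed regulators FUS3 (up to 1.38 CPM) and LEC2 (up to 1.88 CPM) among them passed the filter on low counts, and neither was called. Of the 6 pollen and tapetum genes 2 were at 0 in every library, and nearly all of their summed level, 9.07 to 11.7 CPM in light and 8.57 to 12.1 CPM in dark, came from the kinase gene AGC1.5.

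The name "near silent in light" held for only a part of the genes. The highest light level was under 0.5 CPM in 26 of the 52, under 1 CPM in 34 and under 5 CPM in 48, and it reached 12.1 CPM for AT3G46810. None of the genes was without counts in every light library, and 7 had no count in at least 1. The mean light level had a median of 0.314 CPM and the mean dark level a median of 5.00 CPM. The mean dark level over the mean light level ran from 4.19 for RHA2B to 64.1 for AGL44, with a median of 12.5, and it was at least 10 in 31 genes. These are therefore genes low in light and several times higher in dark, and only part of them was close to absent in light. In bulk RNA, more cells that express a gene and more RNA per cell cannot be told apart.

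**Figure D1:**
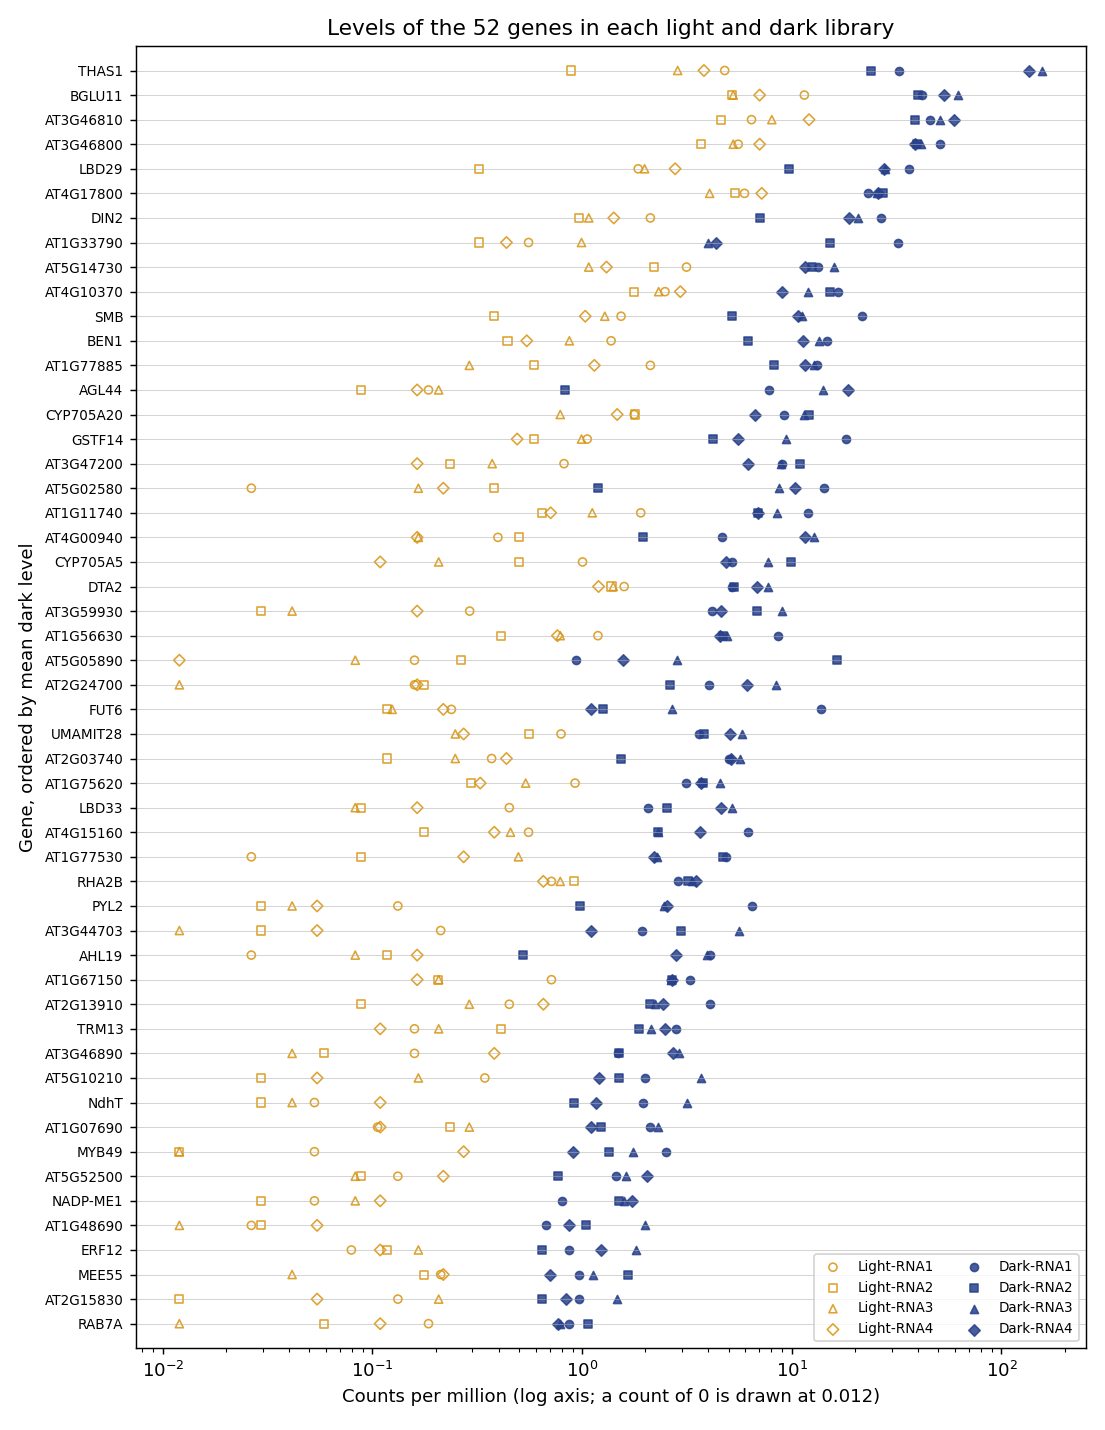
Each row is 1 of the 52 genes and each point 1 library, with light libraries as open orange symbols and dark libraries as filled blue symbols, on a log axis of CPM. The rule makes the groups separate in every row, and a reader should see how the light levels run from single reads up to 12.1 CPM and how widely the dark points spread for AGL44, FUT6 and AT5G05890.

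The annotated starts of several of the genes are shown by the 100 bases before them (RefSeq annotation of TAIR10.1, 5′ to 3′ on the gene's strand), with capitals on the letters TATAAA, as in a TATA box, and on TTGACT, a W box core, on either strand. The first set pairs neighbours and family members that are described below, THAS1 with CYP705A5 and LBD29 with LBD33, and 3 of these 4 hold the TATA letters within this stretch. These 4 were picked for display. In the same stretch the letters occur in 31.4% of the 51 protein-coding genes of the set and 25.8% of all protein-coding genes. The stretches lie at chr5:19456737-19456836 (plus strand) for THAS1, chr5:19434658-19434757 (plus) for CYP705A5, chr3:21549573-21549672 (minus) for LBD29 and chr5:1831468-1831567 (minus) for LBD33.
THAS1: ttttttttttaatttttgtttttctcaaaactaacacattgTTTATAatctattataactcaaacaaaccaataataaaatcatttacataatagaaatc
CYP705A5: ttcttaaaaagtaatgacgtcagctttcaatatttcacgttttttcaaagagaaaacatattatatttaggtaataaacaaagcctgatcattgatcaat
LBD29: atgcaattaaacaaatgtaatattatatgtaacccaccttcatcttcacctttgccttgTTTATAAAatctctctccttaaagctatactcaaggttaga
LBD33: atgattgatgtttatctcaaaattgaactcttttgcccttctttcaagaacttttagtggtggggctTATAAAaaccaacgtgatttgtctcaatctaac

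The second set holds the C1 domain genes among the 52, the transcribed pseudogene AT2G13910, also one of the 52, and AT5G02360, a DC1 domain gene that is not. They lie at chr3:17236669-17236768 (minus strand) for AT3G46800, chr3:17240624-17240723 (minus) for AT3G46810, chr4:6425679-6425778 (minus) for AT4G10370, chr2:5837558-5837657 (plus) for AT2G13910 and chr5:502330-502429 (minus) for AT5G02360.
AT3G46800: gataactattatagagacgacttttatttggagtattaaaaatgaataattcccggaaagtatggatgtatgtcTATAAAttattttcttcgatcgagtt
AT3G46810: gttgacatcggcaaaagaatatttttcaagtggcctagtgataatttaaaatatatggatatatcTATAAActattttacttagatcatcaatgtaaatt
AT4G10370: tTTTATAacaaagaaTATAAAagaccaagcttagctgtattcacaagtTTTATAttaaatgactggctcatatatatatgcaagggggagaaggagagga
AT2G13910: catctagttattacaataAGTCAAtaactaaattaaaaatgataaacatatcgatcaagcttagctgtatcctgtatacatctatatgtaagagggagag
AT5G02360: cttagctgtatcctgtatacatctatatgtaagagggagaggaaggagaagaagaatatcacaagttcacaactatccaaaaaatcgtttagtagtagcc

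The letters TATAAA began at base -26 of AT3G46800, at -35 of AT3G46810, at -39 of LBD29, at -33 of LBD33 and at -85 of AT4G10370, counted back from the annotated start. The marked matches on the other strand, TTTATA, began at -59 of THAS1, at -41 of LBD29 and at -52 and -99 of AT4G10370. AT2G13910 and AT5G02360 shared an unbroken run of 41 bases, which ended directly before the start of AT2G13910 and began at base -100 of AT5G02360. AT4G10370 and AT2G13910 shared 15 bases, caagcttagctgtat, at -75 and -45. In a search of the same stretches of all 27368 protein-coding genes, the run of 41 was found only in that of AT5G02360, the run of 15 only in that of AT4G10370, and the run of 11 that these shared in 4. The 2 adjacent genes AT3G46800 and AT3G46810 shared no more than 8 bases, tctataaa, which occurred in 390 stretches.

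THAS1 (AT5G48010), which forms the triterpene thalianol, had the highest dark level of all 52 genes, also per length (32.8 CPM per kilobase of exon). It lies on chromosome 5 at 19456837 to 19461706 on the plus strand. Its light libraries held 4.79, 0.881, 2.86 and 3.81 CPM and its dark libraries 32.6, 24.0, 157 and 135 CPM, in the order of their numbers. Dark-RNA3 and Dark-RNA4 were thus several times above Dark-RNA1 and Dark-RNA2, which were themselves above every light library. CYP705A5 (AT5G47990, 19434758 to 19436749, plus strand), the desaturase of the pathway, had 1.00, 0.499, 0.207 and 0.109 CPM in light and 5.20, 9.91, 7.74 and 4.85 CPM in dark. In CYP705A5 the highest dark library was Dark-RNA2, which was the lowest for THAS1, so the pair did not follow the same order among the dark libraries.

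CYP708A2 (AT5G48000), the thalianol hydroxylase gene that lies between those genes on the opposite strand, did not follow them. It had 3.46, 47.0, 42.2 and 2.94 CPM in light and 30.2, 29.3, 25.8 and 10.8 CPM in dark, and its groups overlapped (log2 fold change 0.03, SE 0.87, edgeR adjusted p = 0.987). The light libraries of this gene fell far apart, with Light-RNA2 and Light-RNA3 above every dark library and the other light libraries below them. Light-RNA4 was low here although that library stood nearest to the dark group over all genes. Of the other genes of the pathway, the acyltransferase gene AT5G47950 was higher in dark (log2 fold change 1.35, SE 0.24, edgeR adjusted p = 0.00966), with 4.67 to 7.67 CPM in light and 11.3 to 20.2 CPM in dark. The acyltransferase gene AT5G47980 had 0.290 to 1.06 CPM in light and 1.10 to 5.42 CPM in dark and missed the threshold (edgeR adjusted p = 0.0861). The flanking gene AT5G48020 had a log2 fold change of -0.13 (adjusted p = 0.542). Among the other oxidosqualene cyclases, a list chosen after values were seen, 0 of 7 kept were called higher and the lupeol synthase gene LUP1 was called lower (log2 fold change -8.27). None of the 3 marneral cluster genes, of which 1 was kept, was called.

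**Figure D2:**
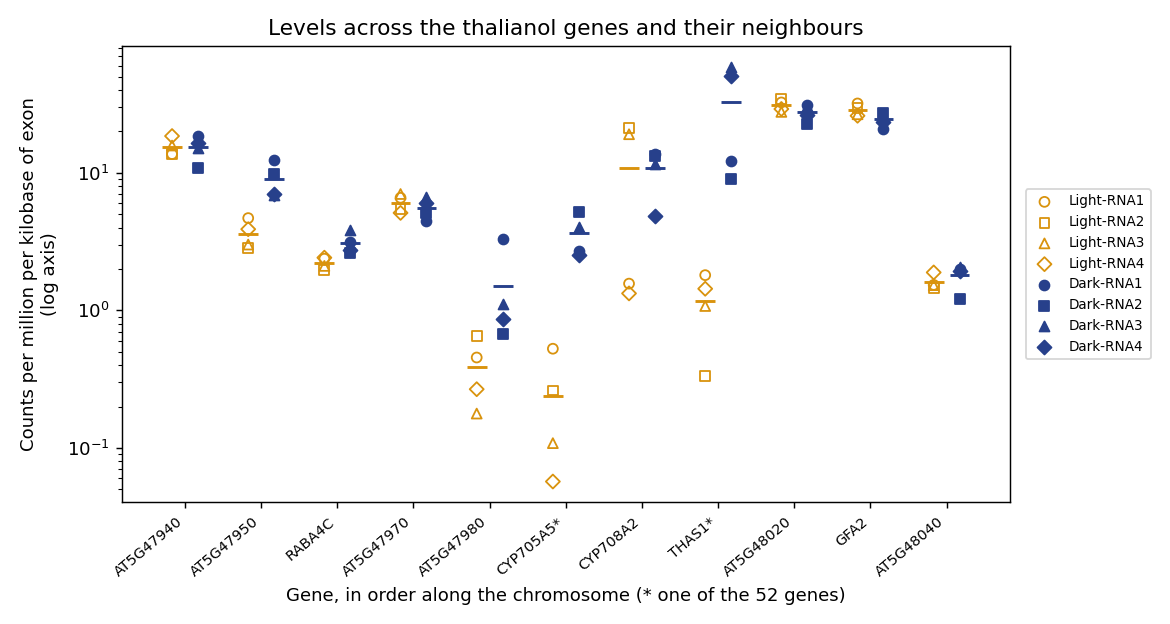
Genes are in their order along the chromosome, with CPM per kilobase of exon on a log axis, 1 symbol per library and a bar at each group mean. THAS1 and CYP705A5 are separate between light and dark, CYP708A2 between them is not, AT5G47950 is higher in dark by 1.35 on the log2 scale, the dark points of AT5G47980 lie above its light points although it missed the threshold, and the flanking gene AT5G48020 lies at like levels in both groups.

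LBD29 (AT3G58190), which acts downstream of auxin response factors when lateral roots start, had 1.85, 0.323, 1.99 and 2.78 CPM in light and 36.2, 9.70, 28.0 and 27.6 CPM in dark. Per length it ranked next to THAS1 among the 52 (26.1 CPM per kilobase). LBD33 (AT5G06080), known as a partner of LBD18 in lateral root formation, had 0.450, 0.0881, 0.0828 and 0.163 CPM in light and 2.05, 2.54, 5.21 and 4.61 CPM in dark. Dark-RNA2 was the lowest dark library for LBD29 and Dark-RNA1 for LBD33. LBD18 itself is not among the 52 because its lowest dark level (2.78 CPM in Dark-RNA2) was just under 3 times its highest light level (0.952 CPM), and it was called higher in dark (log2 fold change 3.86, SE 0.56, edgeR adjusted p = 0.0038). LBD16, which also acts in lateral root initiation, was called higher with 1.38 on the log2 scale (SE 0.36, edgeR adjusted p = 0.0471). This call was lost when any 1 of 6 libraries was left out, with an adjusted p of up to 0.123. LBD18 and LBD16 were the only calls among 13 other LBD genes kept, a group chosen after values were seen. That is 15.4% higher and 0% lower, beside 3.69% and 6.31% of all genes.

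Among the 9 auxin response genes other than LBD29, all kept, 4 were higher in dark (44.4%) and 1 was lower, beside 3.69% and 6.31% of all genes, and the median log2 fold change was 1.13 against 0.00 over all genes tested. The 4 include LBD16 and LBD18, already described above, so these calls are not further to those. The others were GH3.1 and WES1, whose products join auxin to amino acids. GH3.1 and WES1 were higher by 2.57 (SE 0.57) and 1.95 (SE 0.40). IAA5, a gene of the auxin repressor family, was lower (log2 fold change -2.28, SE 0.38), with 18.4 to 40.9 CPM in light and 3.92 to 10.2 CPM in dark. GH3.3 (1.13), IAA1 (0.41), IAA19 (-0.40) and IAA29 (-0.75) did not pass the test. The count of 4 fell to 1 without Light-RNA1, Dark-RNA3 or Dark-RNA4 and to 2 without Light-RNA3, and it was 6 without Light-RNA4 and Dark-RNA2. In the same order, higher calls over all genes were 389, 339, 376, 273 and 2419, against 705 with all libraries. LBD18 and IAA5 were called under every alternative. A GH3 gene, AT1G48690, is itself among the 52, with 3 counts in all over the light libraries and 0.674 to 2.00 CPM in dark. Of the 12 other GH3 genes kept, a group chosen after values were seen, 2 (16.7%) were higher, GH3.1 and WES1. GH3.9 was the 1 lower (8.33%, edgeR adjusted p = 0.0262). Its call was lost without any 1 of 5 libraries, with an adjusted p of up to 0.0903.

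SMB (AT1G79580), a NAC transcription factor that directs maturation of root cap cells, had 1.53, 0.382, 1.28 and 1.03 CPM in light and 21.6, 5.17, 11.2 and 10.7 CPM in dark. The other root cap NAC genes were near 0 (FEZ had no count, BRN2, listed as NAC070, 1 library with reads, and BRN1, listed as NAC015, at most 0.738 CPM), and the cellulase gene CEL5, a target in that tissue, was at 4.62 to 7.74 CPM over all libraries with a log2 fold change of -0.10 (edgeR adjusted p = 0.828). AGL44 (AT2G14210), also known as ANR1, a MADS-box factor of the root response to nitrate, had 0.185, 0.0881, 0.207 and 0.163 CPM in light and 7.77, 0.826, 14.1 and 18.6 CPM in dark. It had both the largest ratio of means and the largest spread among dark libraries, since Dark-RNA2 was 22.5 times under Dark-RNA4. Of the 10 root and root hair markers, 2 (EXPA7 and PLT1) were at 0 in every library and 4 were kept, of which the root hair factor RHD6 was called higher (log2 fold change 2.69, SE 0.62, edgeR adjusted p = 0.0297), a call that was lost without any 1 of 5 libraries, with an adjusted p of up to 0.101. Their summed level was 12.4 to 15.1 CPM in light and 21.1 to 26.9 CPM in dark, and this gap came from RHD6, since the other 9 summed to 11.2 to 12 CPM in light and 9.02 to 17.9 CPM in dark, which overlap. SHR was at 0 in all light libraries and SCR overlapped between groups. The part of root-like cells in the levels of SMB and AGL44 was not tested.

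The C1 domain genes AT3G46800 and AT3G46810 lie next to each other on chromosome 3, at 17234494 to 17236668 and 17238231 to 17240623 on the minus strand, with no listed gene between them. AT3G46800 had 5.55, 3.70, 5.26 and 7.03 CPM in light and 50.7, 39.5, 41.4 and 38.6 CPM in dark. AT3G46810 had 6.43, 4.61, 8.03 and 12.1 CPM in light and 45.8, 38.9, 51.2 and 59.2 CPM in dark. The dark libraries of both differed by no more than 1.52 times, and Dark-RNA2 did not stand apart in AT3G46800. The genes on either side of the pair, CRR2 and TOPP5, had log2 fold changes of -0.14 and 0.20 and were not called. The C1 gene AT4G10370 on chromosome 4, had 1.76 to 2.94 CPM in light and 8.96 to 16.7 CPM in dark. AT3G46890, which lies 9 genes beyond AT3G46810 in the list and has no function given here, had 0.0414 to 0.381 CPM in light and 1.48 to 2.90 CPM in dark. The pseudogene AT2G13910, whose upstream stretch resembles that of AT5G02360, had 0.0881 to 0.654 CPM in light and 2.11 to 4.08 CPM in dark. Of its exon windows of 50 bases 12.7% also occur in AT5G02360, so reads of these genes could be mixed.

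In the rest of the C1 domain family, a group chosen after values were seen, 11 of the 90 genes kept (12.2%) were higher in dark and 1 (1.11%) was lower, beside 3.69% and 6.31% of all genes. The largest of these changes were in AT5G22355 (log2 fold change 2.91, SE 0.39, edgeR adjusted p = 0.0025) and AT5G02360 (2.76, SE 0.48, edgeR adjusted p = 0.00821). Both had under 1 CPM in every light library, and both were called under every alternative. AT4G02540, at 95.2 to 104 CPM in light, was higher by only 0.71 (SE 0.09, edgeR adjusted p = 0.00192), and AT2G21830 was the one lower (-0.88, SE 0.15, edgeR adjusted p = 0.00853). The count was 8 to 9 without any 1 of Light-RNA1 to Light-RNA3, Dark-RNA1, Dark-RNA3 and Dark-RNA4, 31 without Light-RNA4, 16 without Dark-RNA2 and 38 of 88 without both of the last, where 12.6% of all genes were called higher. Beside these counts, higher calls over all genes were 705 with all libraries and 273 to 681 in the first settings. They were 1191 without Light-RNA4 and 1204 without Dark-RNA2.

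AT4G17800, of the AT-hook family that binds the minor groove of DNA, had 5.95, 5.38, 4.06 and 7.19 CPM in light and 23.0, 27.1, 25.5 and 25.7 CPM in dark. Its dark libraries were the most alike of all 52 genes, with the highest only 1.18 times the lowest. AHL19 (AT3G04570), of the same family, had 0.0264, 0.118, 0.0828 and 0.163 CPM in light and 4.08, 0.520, 3.93 and 2.81 CPM in dark, and its level in Dark-RNA2 lay closest of all 52 to the floor of the rule. Of the 29 other AT-hook genes kept, 7 (24.1%) were higher and 2 (6.9%) were lower in dark, beside 3.69% and 6.31% of all genes, again a group chosen after values were seen. AT4G12050 was higher by 1.79 (SE 0.33) and AT4G22810 by 1.39 (SE 0.31), while ESC and AT5G51590 were higher by 0.68 and 0.67. AT3G61310 (-0.75) and AT2G45850 (-1.47) were lower, and the call of AT2G45850 was lost without any 1 of 6 libraries, with an adjusted p of up to 0.131. Only AT4G12050 among those higher was called under every alternative, and the count of 7 fell to 1 without Light-RNA3 or Dark-RNA3 and to 2 or 3 without Light-RNA1, Light-RNA2 or Dark-RNA4. Higher calls over all genes fell from 705 to 273, 339, 389, 357 and 376 in these settings, in the same order.

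**Figure D3:**
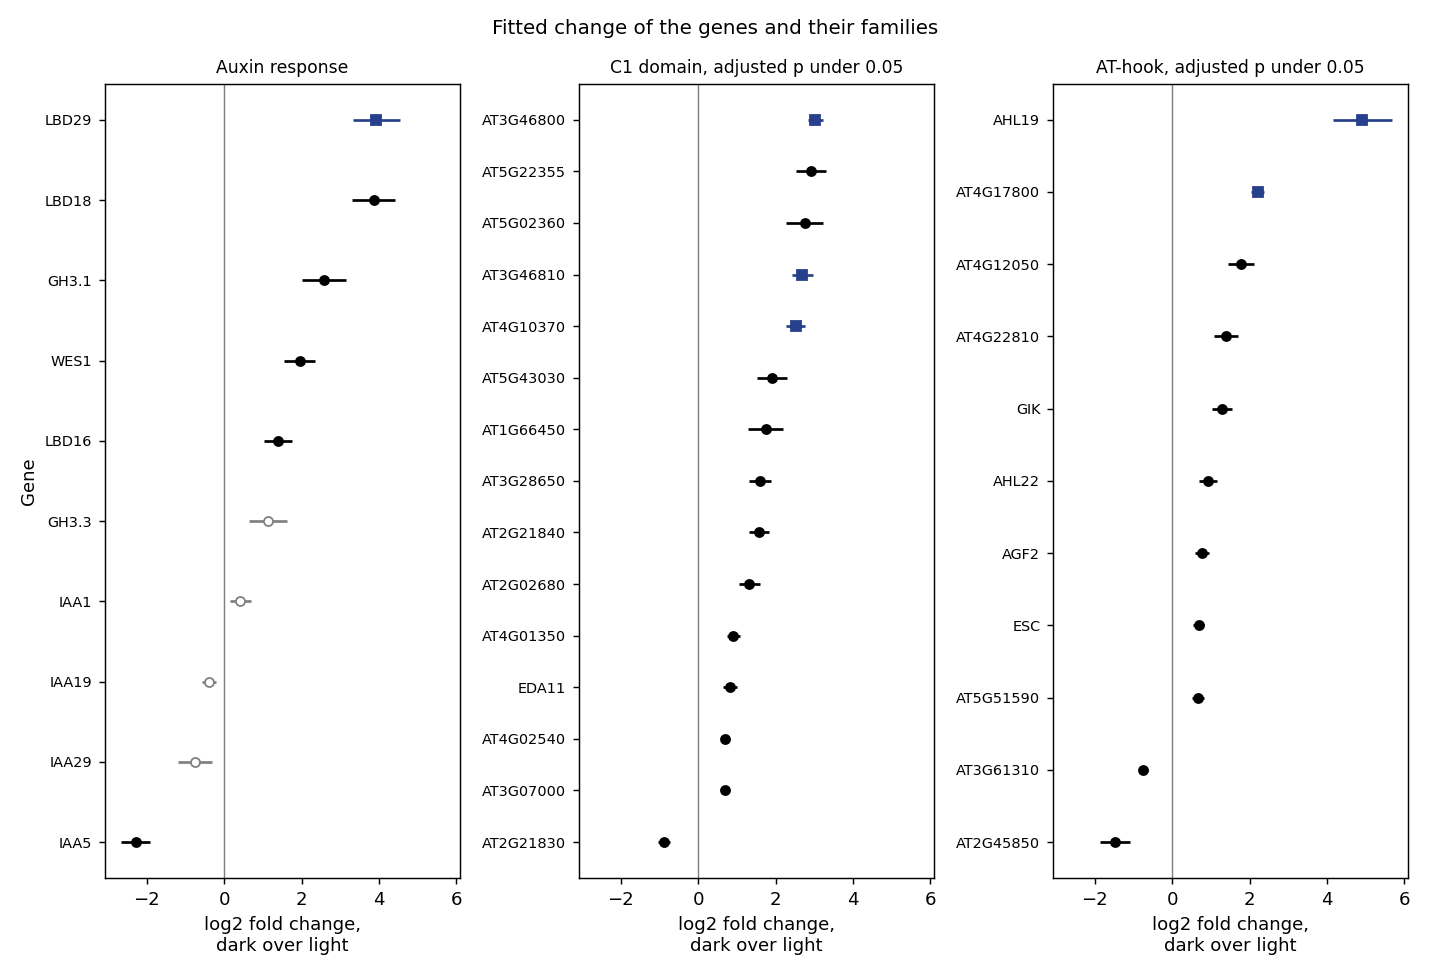
Fitted log2 fold change of dark over light with its standard error, for the auxin response list in full and for those C1 domain and AT-hook genes whose adjusted p was under 0.05. Blue squares are genes of the 52, given as a description, black filled points are other genes that passed the test, and open grey points did not, and IAA5 at -2.28 lies farthest to the lower side.

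DIN2 (AT3G60140), a beta-glucosidase gene known to be induced in leaves kept in darkness or short of sugar, had 2.12, 0.970, 1.08 and 1.42 CPM in light and 26.6, 7.04, 20.8 and 18.8 CPM in dark. BGLU11 (AT1G02850), another gene of this family, had 11.5, 5.20, 5.26 and 7.03 CPM in light and 41.9, 40.2, 61.7 and 53.0 CPM in dark. Light-RNA1 held the highest light level of both genes. Of the 6 other genes kept from the list for sugar starvation and darkness, none was called higher or lower by edgeR, and their median log2 fold change was 0.72. ASN1, which encodes an asparagine synthetase used when carbon is short, had 27.2 CPM in Dark-RNA1 and 2.04 to 3.59 CPM in the other dark libraries, against 1.03 to 3.54 CPM in light. DIN10 likewise had 89.3 CPM in Dark-RNA1 and 12.8 to 17.7 CPM in the other dark libraries. SEN1 had no count in Dark-RNA2 and 1.16 to 4.46 CPM in the other dark libraries. Of that list only DIN2 met the rule. In the beta-glucosidase family outside these genes 1 of 23 kept (4.35%) was higher and 5 (21.7%) were lower, beside 3.69% and 6.31% of all genes.

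Genes of hormone pathways among the 52 were few. PYL2 (AT2G26040), an abscisic acid receptor, had 0.132, 0.0294, 0.0414 and 0.0545 CPM in light and 6.48, 0.979, 2.47 and 2.54 CPM in dark. RHA2B (AT2G01150), a RING-type ubiquitin ligase of abscisic acid signalling, had 0.714, 0.911, 0.787 and 0.654 CPM in light and 2.86, 3.18, 3.34 and 3.48 CPM in dark. The PYL2 libraries differed 6.62 times in dark and those of RHA2B 1.22 times. BEN1 (AT2G45400), a reductase-like protein that lowers brassinosteroid levels, had 0.441 to 1.37 CPM in light and 6.18 to 14.7 CPM in dark. ERF12 (AT1G28360), an ethylene response factor of the repressor type, lay near the floor of the rule with 0.642 to 1.81 CPM in dark and at most 0.166 CPM in light.

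Other genes of metabolism and defence were mostly at a few CPM in dark. The jacalin lectin gene AT1G33790 had 0.555, 0.323, 0.994 and 0.436 CPM in light and 32.1, 15.3, 4.00 and 4.34 CPM in dark, so that Dark-RNA1 and Dark-RNA2 were high where they were low for THAS1. GSTF14 (AT1G49860), a glutathione S-transferase of the phi class, had 0.490 to 1.06 CPM in light and 4.22 to 18.1 CPM in dark. CYP705A20 (AT3G20110), of the same P450 subfamily as CYP705A5, had 0.787 to 1.79 CPM in light and 6.68 to 12.1 CPM in dark, while its neighbour CYP705A19 was called lower in dark. The defensin-like gene AT3G59930 had the next to largest margin, with its lowest dark level (4.17 CPM) 14.3 times its highest light level, but 22.2% of its exon windows of 50 bases also occur in AT5G33355, so its reads could be split between both. The B3 domain gene AT2G24700 had the largest margin, 14.9 times, at 0 to 0.176 CPM in light and 2.63 to 8.40 CPM in dark. The DUF247 gene AT3G47200 had a margin of 7.54 times and the DUF247 gene AT1G67150 one of 3.72 times. FUT6 (AT1G14080), which adds fucose to arabinogalactan proteins, had at most 0.238 CPM in light and 13.8, 1.25, 2.69 and 1.10 CPM in dark. The glycosyltransferase gene AT5G05890 had 0 to 0.264 CPM in light and 0.931, 16.4, 2.84 and 1.57 CPM in dark, and its fitted log2 fold change of 5.32 was 3.33 without Dark-RNA2 and Light-RNA4. NdhT (AT4G09350), a subunit of the chloroplast NDH complex, was at 0.0294 to 0.109 CPM in light and 0.918 to 3.15 CPM in dark.

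The genes without a role given here were as varied. AT5G14730, of unknown function, had 1.08 to 3.15 CPM in light and 11.5 to 16.0 CPM in dark, and AT1G77885, also unknown, had 0.290 to 2.12 CPM in light and 8.20 to 13.1 CPM in dark. AT5G02580 had 0.0264 to 0.382 CPM in light and 14.2, 1.19, 8.68 and 10.3 CPM in dark, and the Dof factor gene AT4G00940 had 0.163 to 0.499 CPM in light and 4.65, 1.96, 12.7 and 11.5 CPM in dark. In both, Dark-RNA2 was the library nearest to light. The ankyrin repeat gene AT1G11740 had 0.646 to 1.90 CPM in light and 6.88 to 12 CPM in dark. DTA2 and TRM13 lie within 10 genes of each other on chromosome 2, and their dark levels of 5.20 to 7.74 CPM and 1.87 to 2.79 CPM varied little. AT3G44703 had 0 to 0.212 CPM in light and 1.10 to 5.62 CPM in dark, and 7.64% of its exon windows occur elsewhere. The other 13 genes (UMAMIT28, an amino acid transporter gene, NADP-ME1, a malic enzyme gene, MYB49, RAB7A, MEE55, AT1G07690, AT1G56630, AT1G75620, AT1G77530, AT2G03740, AT4G15160, AT5G10210 and AT5G52500) had mean dark levels from 0.872 CPM for RAB7A to 5.68 CPM for AT1G56630.

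The dark libraries were not alike for these genes. The highest dark level was 2.32 times the lowest in the median gene of the 52, compared with 1.75 for the 647 other genes called higher in dark and 1.53 for all genes tested. The rule bounds the lowest dark library but not the highest. Dark-RNA2 was the lowest dark library for 24 of the 52 (46.2%), and for 63.1% of the other genes called higher and 41.8% of all genes tested. Dark-RNA4 was the lowest for 15 (28.8%), against 12.8% of the other genes called higher and 15.2% of all. The rule acts on the lowest dark level, so the choice of the 52 shaped their shares. Without Dark-RNA2, 148 genes would have met it, and nothing is read from these comparisons. Dark-RNA1 was the highest for 21 (40.4%, beside 32.2% of all genes tested) and Dark-RNA3 for 19 (36.5%, beside 17.6%). Dark-RNA2 was the highest for 7 (13.5%, beside 25.1%) and Dark-RNA4 for 5 (9.62%, beside 25.1%). Among the other genes called higher, these shares were 37.7%, 25.7%, 10.2% and 26.4%, in the same order. AGL44, AT5G02580, AHL19, AT4G00940, THAS1, DIN2, LBD29 and SMB all had their lowest dark level in Dark-RNA2, and AT5G05890, CYP705A5, CYP705A20, AT3G47200, AT4G17800, MEE55 and RAB7A their highest. In light, the highest library was Light-RNA1 for 24 genes and Light-RNA4 for 15. The rule acts on the highest light level, and the shares over all genes were not computed, so nothing is read from these counts.

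**Figure D4:**
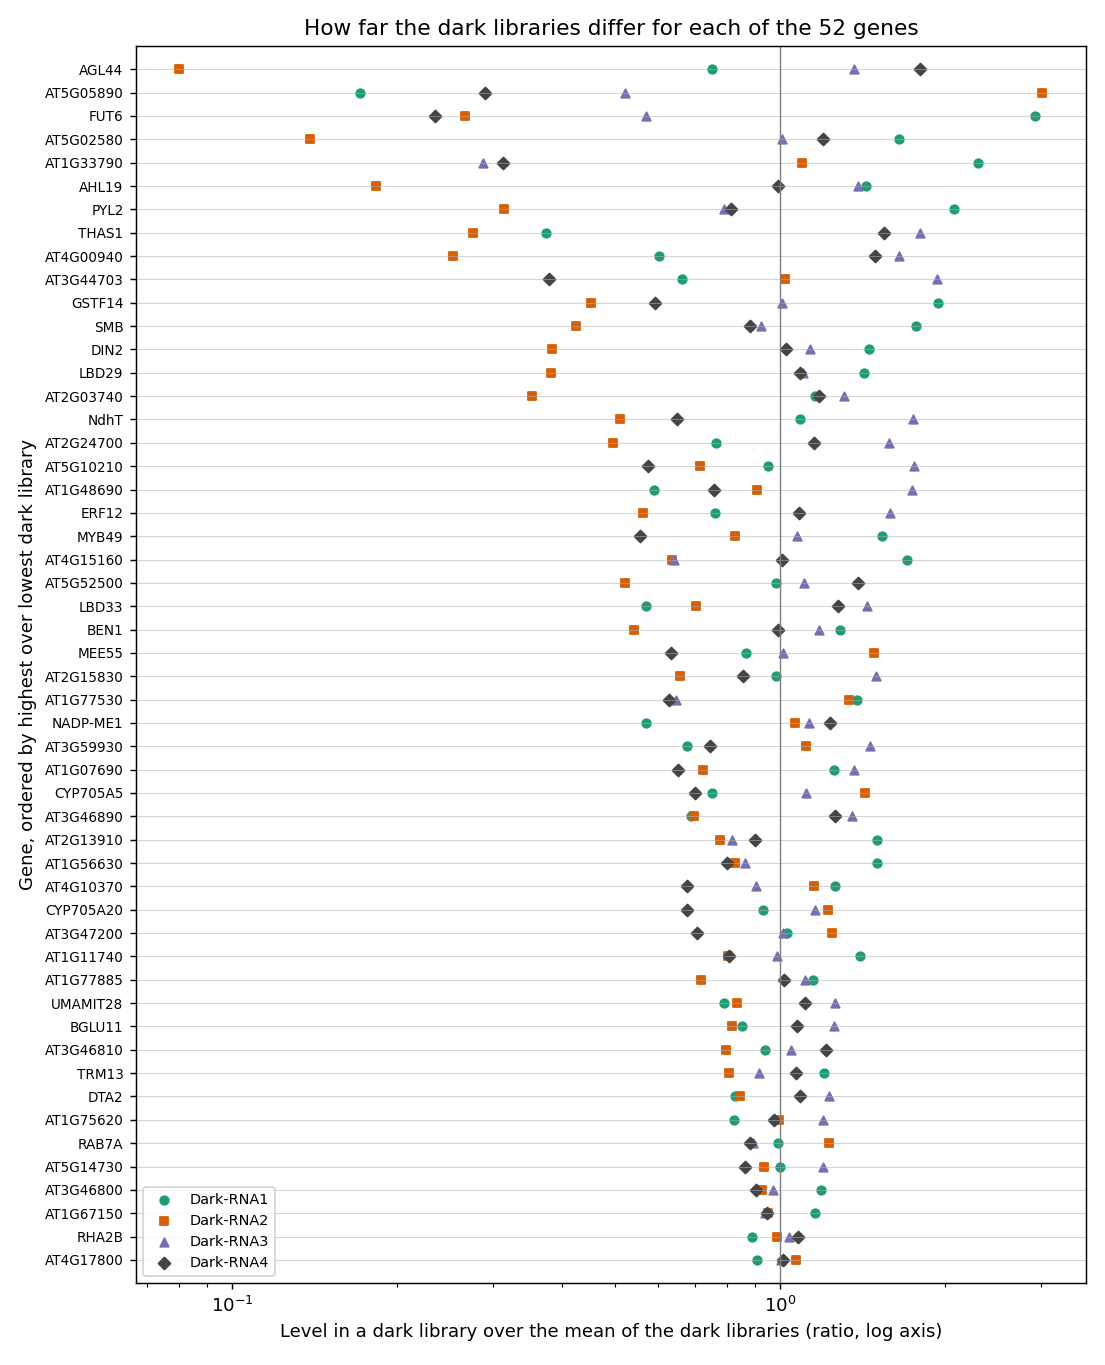
For each of the 52 genes the 4 symbols give the level in each dark library divided by the mean of the dark libraries, on a log axis, with the genes ordered by highest over lowest. From AT4G17800 at 1.18 times to AGL44 at 22.5 times the spread widens, and Dark-RNA2 (orange squares) lies at the far left for AGL44 and at the far right for AT5G05890.

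The thresholds cut through a continuum. Just inside the floor were AHL19 with a lowest dark level of 0.520 CPM and ERF12 and AT2G15830 with 0.642 CPM, and just under it were SWEET16 (0.375 CPM), AT1G66800 (0.281 CPM) and AT3G13662 (0.275 CPM). Just inside the ratio were AT4G10370 (3.05), AT2G15830 (3.1) and AT5G02580 (3.12), and just under it were AT1G23510 (2.998), HEXO3 (2.96) and FMO GS-OX4 (2.95). HEXO3 and FMO GS-OX4 had 20.3 CPM or more in every dark library. A ratio of 2 would have taken 112 genes and a ratio of 5 only 10. All 52 genes passed the filter on low counts and all 52 had an adjusted p under 0.05 in the fit over all genes, beside 3.69% of all genes, from which nothing is read because the rule used the same contrast. Their fitted log2 fold changes ran from 2.09 to 6.0 with a median of 3.65.

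**Figure D5:**
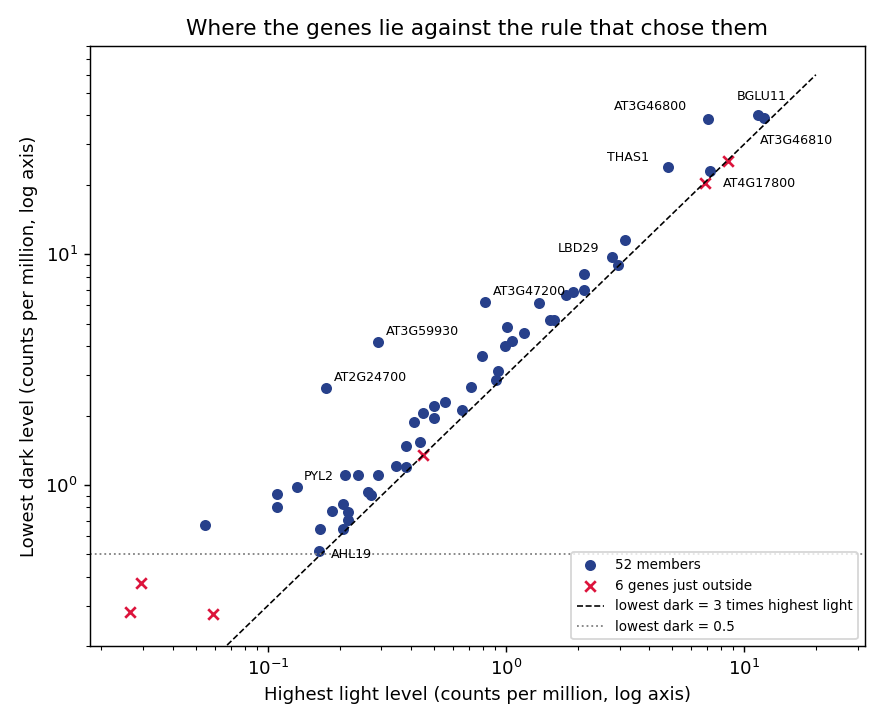
The highest light level against the lowest dark level of each gene, both in CPM on log axes, with the ratio of 3 as a dashed line and the floor of 0.5 as a dotted line. The points crowd along the dashed line, with a median ratio of 3.85, and AT2G24700 and AT3G59930 lie farthest above it.

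Genes that lie directly beside the 52 along the chromosome were examined because position is not part of the rule. Of the 101 such neighbours, 71 were kept, and 13 of those were higher in dark (18.3%, beside 3.69% of all genes) and 4 were lower (5.63%, beside 6.31%). Their median log2 fold change was 0.08, with values in both directions, also among neighbours that missed the threshold. GPAT7, an acyltransferase gene of the suberin type next to LBD33, was higher by 3.74 (SE 0.58, edgeR adjusted p = 0.00508), with 0.118 to 0.490 CPM in light and 1.16 to 5.18 CPM in dark. LHY, a core gene of the circadian clock next to UMAMIT28, was higher by 1.36 (SE 0.23, edgeR adjusted p = 0.00751), with 9.15 to 14.9 CPM in light and 19.1 to 33.8 CPM in dark. The DUF247 gene AT3G47210 beside AT3G47200, a member of the same family, was higher by 2.08 (SE 0.38, edgeR adjusted p = 0.0102). ACR5 beside AT2G03740 and SCL8 beside AT5G52500 were higher by 1.28 (SE 0.24) and 1.6 (SE 0.27).

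These 5 neighbours were called under every alternative. The other 8 (ERF11, GXMT1, AT1G67148, AT1G79570, PDE345, LRX3, AT4G15150 and the glycosyltransferase gene AT5G05880 beside AT5G05890) each lost the call when 1 library was left out. The count of 13 was 5 without Light-RNA3, 6 without Light-RNA1 or Light-RNA2, 8 without Dark-RNA3 or Dark-RNA4, and 18 (25.4%, beside 12.6% of all genes) without Light-RNA4 and Dark-RNA2. Calls over all genes fell too, from 705 higher to 273 without Light-RNA3. They were 389 and 357 without Light-RNA1 and Light-RNA2, and 339 and 376 without Dark-RNA3 and Dark-RNA4. Neighbours can share reads or a family with the gene beside them, as AT5G05880 does (1.19% of its exon windows also in AT5G05890). Within 2 genes on each side 16 of 139 kept (11.5%) were higher. AT2G03750, a sulfotransferase-type gene on the other side of AT2G03740, was lower by far (log2 fold change -8.59, SE 0.75, edgeR adjusted p = 0.000332), with 4.82 to 15.6 CPM in light and at most 1 read per dark library. CAD3, AT1G07700 and CYP705A19 were the other neighbours called lower, the last with an adjusted p of 0.0291 that rose to as much as 0.0933 and lost the call without any 1 of 5 libraries, and 53.3% of the exon windows of CAD3 also occur in CAD2.

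In the other pathway lists few genes were called, to be read beside 3.69% higher and 6.31% lower over all genes. In the lists for low oxygen (10 kept), camalexin (3 kept) and sugar starvation (6 kept) no gene passed the test, although camalexin and low oxygen had median log2 fold changes of 2.03 and 0.99. In the ethylene list 1 of 11 kept was higher, the response factor gene ERF1 (log2 fold change 1.96, SE 0.46, edgeR adjusted p = 0.03), and ORA59 and the receptor gene ERS2 were lower (-0.65 and -0.56). In the salicylic acid list 1 of 9 was higher, FMO1 (2.82, SE 0.73, edgeR adjusted p = 0.0438), which had 7.29 CPM in Dark-RNA1 and 0.826 CPM in Dark-RNA2. In the suberin list 1 of 7 was higher, KCS2 (1.75, SE 0.41, edgeR adjusted p = 0.0297), at 0.132 to 1.00 CPM over all libraries. ERF1, ORA59, ERS2, FMO1 and KCS2 each lost the call without some single library, with adjusted p of up to 0.102, 0.0982, 0.114, 0.127 and 0.0968. Without Light-RNA4 and Dark-RNA2 the counts of higher genes were 3 of 3 for camalexin, 7 of 9 for salicylic acid and 5 of 10 for low oxygen. They were 2 of 6 for starvation, 2 of 7 for suberin and 3 of 11 for ethylene, where 2 were lower. Over all genes the share higher was 12.6%. In CYP79B2 of the camalexin list, for example, Light-RNA4 held 36.6 CPM where the other light libraries had 1.56 to 5.17 CPM, and Dark-RNA2 held 5.23 CPM where the other dark libraries had 85.1 to 87.4 CPM.

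The 52 genes were spread over all 5 chromosomes, with 15, 12, 10, 6 and 9 on chromosomes 1 to 5, and 51 of them are annotated as protein-coding. Of the 52, 18 (34.6%) have a single exon, compared with 20.8% of the 27368 protein-coding genes listed, and the median exon length was 1700.5 bases against 1554.0. In windows from 250 bases before to 50 after the start of the 51 protein-coding genes, read on both strands, the letters TATAAA occurred in 29 (56.9%, and in 52.2% of all protein-coding genes). The W box core, TTGACC or TTGACT, occurred in 10 (19.6% against 32.4%), the evening element core AATATCT in 4 (7.84% against 11.5%), the G box CACGTG in 2 (3.92% against 7.68%) and the GCC box GCCGCC in 2 (3.92% against 2.58%). These letters are matches in the window and say nothing of binding. For 46 of the 52 no 50-base exon window occurs elsewhere, and AT2G13910 (17.6%) is the other gene besides AT3G59930 with over 10%. Of the 52, 6 overlap another listed gene, the longest being AT5G10210 with ANN6 (269 bases) and AT1G67150 with AT1G67160 (207 bases), both on opposite strands. ANN6 had at most 2 reads in any library, while AT1G67160 had 1.78 to 2.70 CPM in light and 2.57 to 5.49 CPM in dark, and whether strand was used in counting is not given in the sources used here.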

How the data were processed

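RNA-seq libraries (4 light, 4 dark, paired-end reads of 50 bases) were analysed from the gene counts that the authors deposited. Per the labels and the study, reads were mapped with TopHat2 to TAIR10 and counted with HTSeq, whose strand setting is not given in the sources used here. A second deposited table holds the authors' own edgeR comparison and was not used, and chromatin libraries were not analysed here. All 8 sample columns of the count table were used. CPM was computed from column sums, and exact zeros allow up to 3 counts. That floor covers counting error only.

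Counts were tested with edgeR 4.0.16 (R 4.3.3, filterByExpr with a minimum count of 10, TMM, quasi-likelihood fit, Benjamini-Hochberg adjustment over the 19129 genes kept). DESeq2 1.42.0, other size factors, no filter, a replicate block and left-out libraries were alternatives. The script was tested on simulated data. No 2 libraries of the same group agreed within sampling noise. Gene positions, names and upstream sequence came from the RefSeq annotation of TAIR10.1, which matched 27636 of 28598 identifiers.

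The members and the gene lists were chosen with earlier results of these data known. Members named in full were the 20 with the highest dark mean, those within 10 genes of another, the 3 nearest each threshold, and the 10 with the most and 5 with the least differing dark libraries. Other genes named were list genes and neighbours that passed the test and the 3 just outside each threshold. Further members and the families were named after their values were seen. The rule left out 7 identifiers (AT5G23820, AT5G23830, AT5G23840, AT3G04430, AT1G50090, AT2G21900 and AT4G18450), of which AT1G50090 did not meet it.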

Additional observations from a re-analysis of the deposited data

Results flagged for a closer look

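For the 33 genes named in full, 66 groups of 4 libraries were tested. In 4 groups, 1 library had a gap to the nearest other above Dixon's critical share of the group's range. Chance gives about 3.3 for groups not picked by their spread. The genes flagged were named in full only because their dark libraries differed most (AT5G05890 and FUT6) or least (AT1G67150). The count of 4 can therefore not be read against 3.3. AT5G05890 had 16.4 CPM in Dark-RNA2 and 0.931 to 2.84 CPM in the other dark libraries. FUT6 had 13.8 CPM in Dark-RNA1 and 1.10 to 2.69 CPM in the other dark libraries. AT1G67150 had 0.714 CPM in Light-RNA1 and 0.163 to 0.207 CPM in the other light libraries, and 3.27 CPM in Dark-RNA1 and 2.65 to 2.69 CPM in the other dark libraries.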

How the results depend on the processing

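With the 7 named identifiers left out throughout, 52 genes met the rule. That number rose to 58 with TMM or DESeq2 scaling. It was 112 with a ratio of 2, 10 with a ratio of 5, and 56 and 39 with floors of 0.25 and 1. With 1 library left out, which loosens the rule by construction, it was 53 to 148 (95 without Light-RNA4, 148 without Dark-RNA2). With both of those left out, chosen after seeing the data, it was 390. Over all genes, higher calls numbered 1421 with DESeq2, 2419 without both libraries (lower calls 2431) and 273 to 1204 with 1 library left out (lower 689 to 1669). Among the neighbours, higher calls ran from 5 to 14 and lower calls from 3 to 5 with 1 library left out, and lower calls were 9 within 2 genes. Over all fixed lists, 8 other genes were higher and 3 lower, with 14 higher by DESeq2, 29 without both libraries, and 1 to 16 higher and 1 to 4 lower with 1 library left out. In the 100 bases before the start, the W box share was 5.88% (12.8% of all protein-coding genes) and the TATA share 31.4% (25.8% of all). The cause of these changes was not tested.

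Replicate numbers are shared between groups, but the labels do not say whether same-numbered libraries were paired. Same-numbered libraries deviated together in 2 of 4 pairs (correlations -0.14, 0.58, -0.02 and 0.22). These 4 values cannot settle whether the cultures were paired, so the main test used no pairing. With a replicate block the calls over all genes were 863 higher and 1358 lower, those among neighbours 13 and 4, and those over the lists 15 and 1. Of 65 named or family genes outside the 52, 30 were called under every alternative. Depth limits light levels under 0.0793 to 0.163 CPM.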
